A study of Homo sapiens with 2 samples.

Results

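The genes described here are 56 protein-coding genes of mitosis and the spindle, named in a list of mitotic kinases and cyclins, kinetochore and checkpoint genes, kinesins, and genes of anaphase, cytokinesis and mitotic chromatin. They were found by gene symbol in the transcript tables of both libraries, and the values of their transcripts were summed per gene. All 56 were among the 25240 genes listed and among the 12493 genes called measured, which had 1 FPKM (fragments per kilobase of transcript, scaled to library depth) or more in at least 1 library. The rule that lists them uses no measured value.

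The study sequenced RNA from T47D, an established human luminal breast cancer line, to ask how the transcriptome differs when a hairpin targets RON, the receptor tyrosine kinase encoded by MST1R. The shRON group is 1 library from cells that received this hairpin, and the shNT group is 1 library from cells transduced with a non-targeting hairpin. Cells of both groups were transduced, selected with puromycin and maintained in it, in DMEM of high glucose content containing serum, and their total RNA went into TruSeq libraries. The name of the control table calls its cells wild type, whereas the label gives a non-targeting hairpin, and the label was followed. The sources used here do not give whether the cells were pools or clones, how many hairpin sequences were used, or whether strand was marked. Each group has a single library, so differences could not be checked against replicates, carry no p-value, and describe 2 libraries only.

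The libraries held about 11300000 estimated fragments in shRON and 11700000 in shNT. MST1R stood at 9.10 FPKM in shRON and 12.1 FPKM in shNT. All 9 luminal markers examined were at 1 FPKM or more in both libraries, with summed levels of 6516 FPKM in shRON and 8781 FPKM in shNT. None of 6 immune markers reached 1 FPKM (sums of 0.879 in shRON and 0.134 in shNT), and PTPRC, CD3E, LYZ and TYROBP were listed at 0 in both. Of 6 fibroblast markers, 2 reached 1 FPKM in shRON and 1 in shNT (sums of 5.86 FPKM in shRON and 4.14 FPKM in shNT), with PDGFRB listed at 0. None of 4 endothelial markers did (sums of 0.0141 in shRON and 0.0137 in shNT, 3 of them at 0 in both). The part of these levels in the results below was not tested.

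Entry into mitosis is driven by CDK1 bound to cyclin A or B. Kinesins and other microtubule proteins then build the spindle, kinetochores couple chromosomes to it, and the checkpoint holds back the anaphase-promoting complex until all are attached. Many of these genes are transcribed late in the cell cycle through the MuvB core, which represses them in resting cells as part of the DREAM complex and later activates them together with B-MYB and FOXM1. Their promoters often carry a cell cycle genes homology region, or CHR, near the start site with CCAAT boxes upstream of it. In RNA from whole cultures, fewer cells in mitosis and less of an RNA per cell cannot be told apart.

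The promoter letters that this family is known for are shown first, since they are what many of its genes share apart from the list. RefSeq promoter windows of 300 bases (GRCh38.p14, 250 bases before the start and 50 after) were matched by symbol to 49 of the 56 genes, as 64 windows. No window was matched for AURKA, BIRC5, BUB3, FOXM1, TPX2, TTK and UBE2C. The CHR letters searched were TTTGAA together with TTCGAA and with TTTAAA, and the CCAAT box was searched as CCAAT, each on both strands, so that TTTGAA also matches TTCAAA and CCAAT also matches ATTGG. Of the 64 windows, 62.5% held TTTGAA, against 15.2% of all 35116 windows. TTCGAA was in 7.81% against 1.45%, TTTAAA in 26.6% against 12.2%, and CCAAT in 68.75% against 34.6%. Within 60 bases before and 20 after the start, TTTGAA or TTCGAA lay in 45.3% of the windows of these genes and in 4.02% of all windows. The 140 bases around the start are printed for 8 genes that span the range of ratios given later, from PRC1, the lowest in shRON, to CDC25B, the highest. Letters in capitals mark the matches, the sequence reads 5′ to 3′ on the strand of the gene, and it runs from position -120 to position 20, where 1 is the start base.
PRC1, chr15:90994516-90994655, minus strand: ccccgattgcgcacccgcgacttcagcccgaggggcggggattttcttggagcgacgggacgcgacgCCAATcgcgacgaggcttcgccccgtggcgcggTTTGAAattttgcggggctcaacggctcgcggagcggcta
KIF11, chr10:92593010-92593149, plus strand: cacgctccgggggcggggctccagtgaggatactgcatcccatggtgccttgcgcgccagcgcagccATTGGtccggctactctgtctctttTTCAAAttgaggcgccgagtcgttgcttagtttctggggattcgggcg
HMMR, chr5:163460512-163460651, plus strand: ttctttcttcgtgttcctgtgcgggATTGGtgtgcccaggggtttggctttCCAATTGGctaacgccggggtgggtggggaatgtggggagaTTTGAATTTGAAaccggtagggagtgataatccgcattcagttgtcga
CCNB2, chr15:59105026-59105165, plus strand: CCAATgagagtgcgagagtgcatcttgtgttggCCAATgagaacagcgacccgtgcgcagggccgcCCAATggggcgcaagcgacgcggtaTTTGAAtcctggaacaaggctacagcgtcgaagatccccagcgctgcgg
PLK1, chr16:23678769-23678908, plus strand: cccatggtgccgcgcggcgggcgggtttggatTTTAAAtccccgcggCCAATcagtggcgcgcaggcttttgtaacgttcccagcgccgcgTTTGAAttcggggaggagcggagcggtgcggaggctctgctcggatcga
KIF4A, chrX:70289984-70290123, plus strand: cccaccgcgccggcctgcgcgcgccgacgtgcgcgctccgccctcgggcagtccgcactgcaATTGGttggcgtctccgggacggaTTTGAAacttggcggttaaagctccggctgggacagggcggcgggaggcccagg
CDC20, chr1:43358861-43359000, plus strand: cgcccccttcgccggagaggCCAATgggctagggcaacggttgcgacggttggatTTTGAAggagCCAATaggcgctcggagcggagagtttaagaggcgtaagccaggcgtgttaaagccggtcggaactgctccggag
CDC25B, chr20:3796190-3796329, plus strand: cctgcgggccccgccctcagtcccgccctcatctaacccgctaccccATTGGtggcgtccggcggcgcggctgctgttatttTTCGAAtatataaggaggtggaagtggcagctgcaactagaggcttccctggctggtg
PRC1 held CCAAT at position -53 and TTTGAA at -20. KIF11 held ATTGG at -53 and TTCAAA at -28, and HMMR held TTTGAA at -28 and again at -22, below a CCAAT and an ATTGG that overlap at -69 and -66. CCNB2 had CCAAT at -120, -87 and -54 and TTTGAA at -29, and PLK1 had TTTGAA at the same place, -29. KIF4A, whose levels in the libraries were nearly equal, also held TTTGAA, at -34. CDC20 held it farther out, at -65, between CCAAT boxes at -100 and -55, and CDC25B carried TTCGAA at -38 with ATTGG at -73. The close CHR letters were thus present at both ends of the range. They stood within the near window in 4 of 9 genes at least 1.5-fold lower in shRON by the rule given below. They also stood there in 15 of 24 genes that were lower by less and in 10 of 16 at a log2 ratio of 0 or above. A match describes letters in a window and is not evidence of binding.

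As a group the 56 genes lay lower in the shRON library, by small amounts. The log2 ratio used throughout compares shRON with shNT after 1 was added to each FPKM value, so that negative values mean a lower level in shRON, and it understates the ratio of low genes. Its median was -0.23 over the 56 genes (quartiles -0.44 and 0.11), against 0.04 over all measured genes (quartiles -0.25 and 0.30). The ratio was below 0 in 37 of the 56 genes (66.1%), against 46% of all measured genes. By a fixed rule of size, a gene was counted as fallen or risen where the difference reached 1.5-fold on this scale, a log2 ratio of 0.585 in either direction. Of the 56 genes, 9 fell (16.1%), against 8.85% of all measured genes, and 1 rose (1.79%), against 9.94%. With 5 in place of 1 added to FPKM, 3 of the 56 fell, against 3.73% of all measured genes. Summed over the 56 genes, the level was 961.6 FPKM in shRON and 1155 FPKM in shNT. Just inside the rule for a fall was NUF2 at -0.59, and just outside it was SPC25 at -0.58. Without the added 1, SPC25 (ratio of FPKM 0.632) and KIF23 (0.648) also lay past 1.5-fold, but they were not counted.

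At the estimated depth, most of the approximate counting intervals of these genes left out equal levels, which describes the estimates and is not a test. The genes rested on 41 to 4282 estimated fragments per library, with a median of 596 in shRON and 658.5 in shNT. Approximate 95% intervals on the ratio of FPKM, which cover counting error only and not the difference between cultures, lay wholly below 1 for 33 genes, wholly above 1 for 10, and held 1 for 13. The intervals rest on estimated fragments, for which no count test was run. They were not sorted in this way for all measured genes. The counts of 33 and 10 therefore have no background share and do not set these genes apart from others. Abundant genes had the lowest median. The median log2 ratio was -0.35 for the 18 genes at a mean of 20 FPKM or more, -0.15 for 15 genes between 10 and 20 FPKM and -0.03 for 23 genes under 10 FPKM. Over all measured genes in the same ranges it was -0.04, 0.05 and 0.09.

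**Figure D1:**
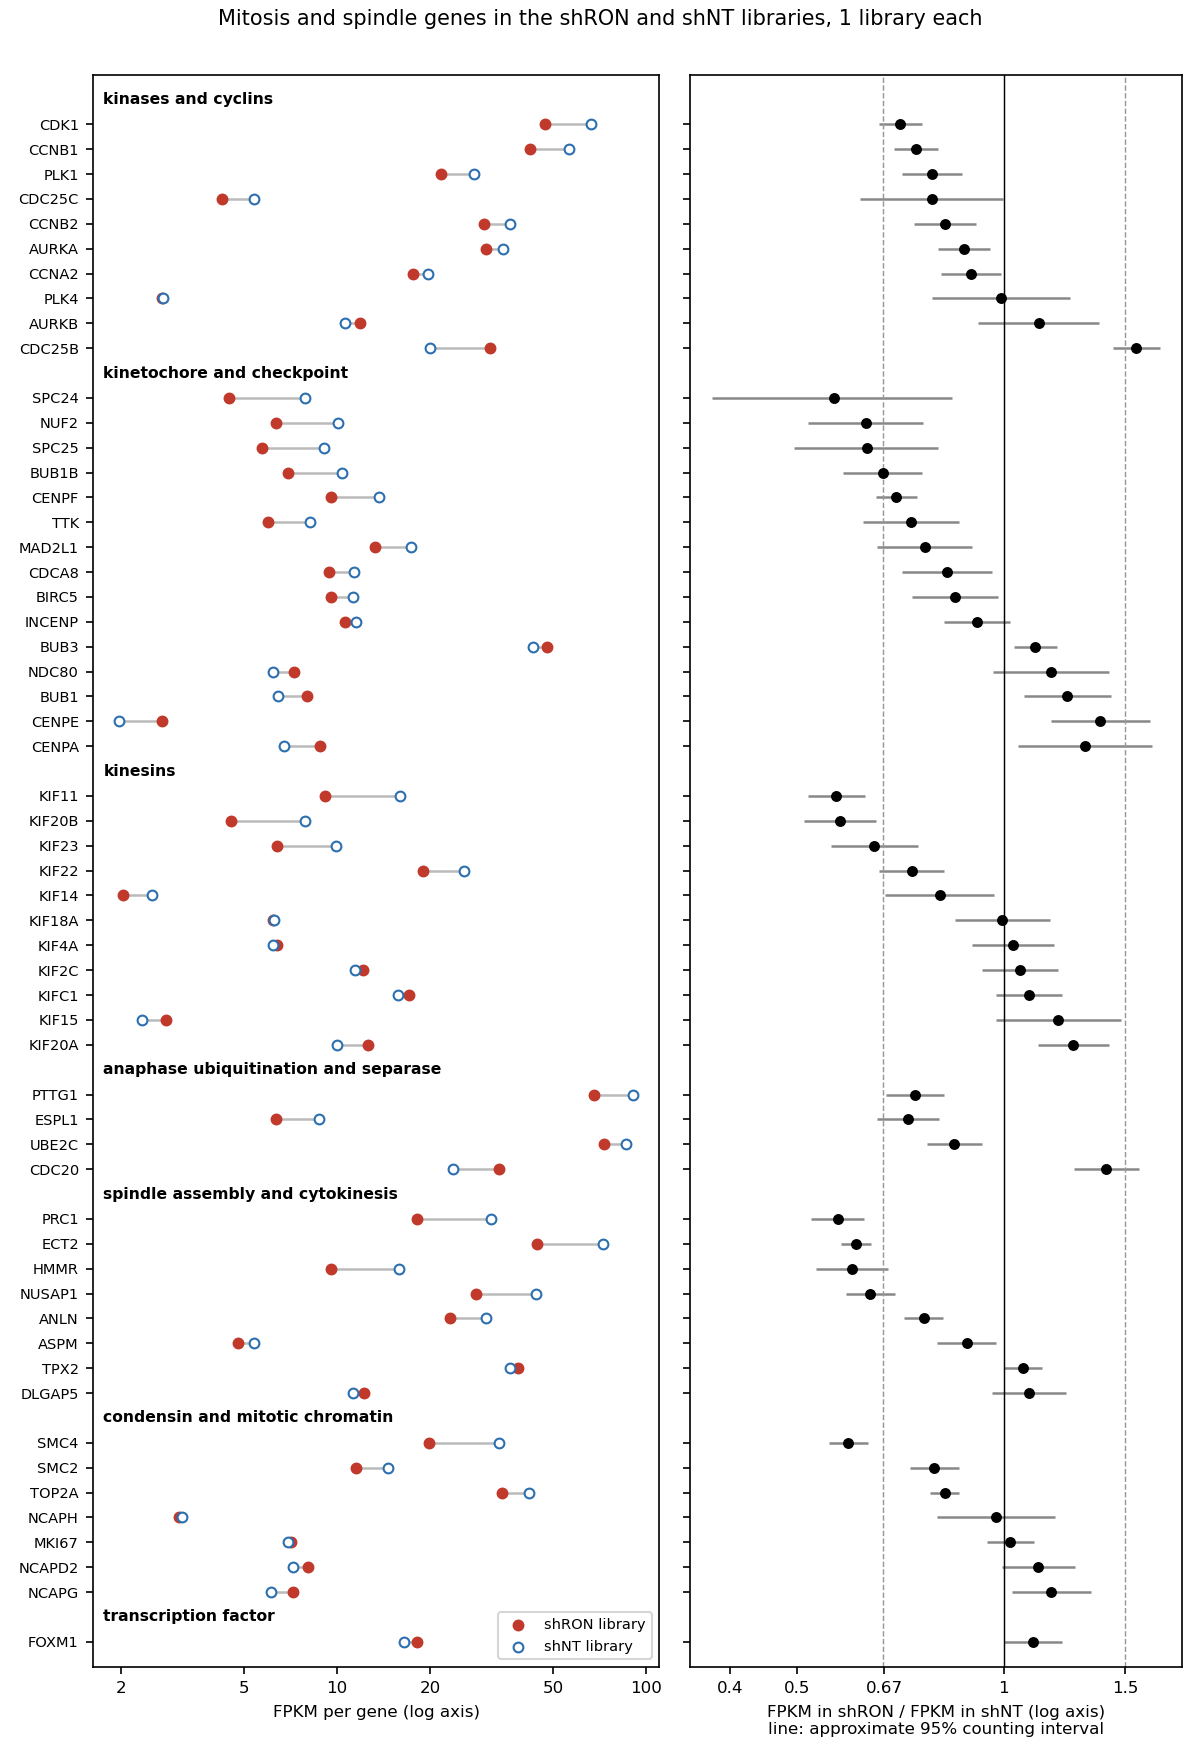
Left, FPKM of each of the 56 genes on a log axis, with the shRON library as a filled red point and the shNT library as an open blue point, by role and in order of log2 ratio. Right, the ratio of FPKM in shRON over shNT on a log axis, with lines for the approximate 95% counting interval and dashed lines at 1.5-fold. No 1 was added to this ratio, so SPC25 and KIF23 lie past a dashed line but were not counted as fallen. Of the 56 intervals, 33 lie wholly left of 1, a count that was not made for all measured genes. CDC25B is the gene with the highest ratio.

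**Figure D2:**
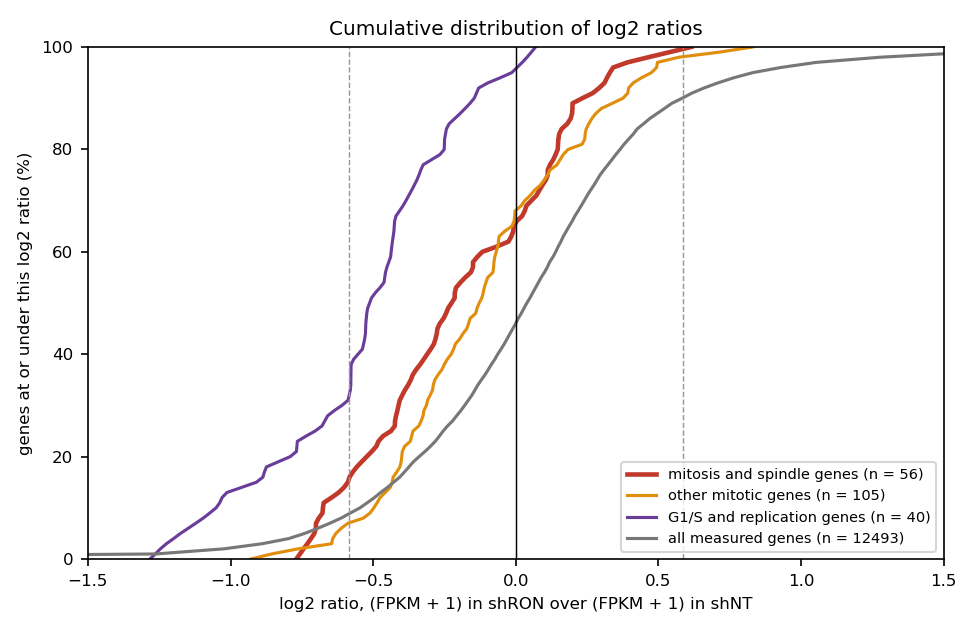
Share of genes at or under each log2 ratio for the 56 mitosis and spindle genes, 105 other mitotic genes, 40 G1/S and replication genes and all 12493 measured genes. Dashed lines mark 1.5-fold. The red curve lies left of the grey one except at its low end, with medians of -0.23 and 0.04, and the G1/S curve lies farther left, with a median of -0.51.

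Of the 10 kinases and cyclins, 8 had log2 ratios below 0 (80%), against 46% of all measured genes. None fell by 1.5-fold, against 8.85%, and 1 rose (10%), against 9.94%. The median of the 10 was -0.23, and their summed level was 238.5 FPKM in shRON and 279.7 FPKM in shNT. CDK1, the kinase that drives mitotic entry, was the most abundant of them. It had 46.99 FPKM in shRON and 66.4 FPKM in shNT (log2 ratio -0.49), a ratio of FPKM of 0.707 with a counting interval of 0.659 to 0.760. CCNB1, which encodes cyclin B1, stood at 42.0 FPKM in shRON and 56.4 FPKM in shNT (-0.41), a ratio of 0.746 (0.693 to 0.802). Cyclin B2 had a smaller difference, with CCNB2 at 29.9 FPKM in shRON and 36.4 FPKM in shNT (-0.27). CCNA2, the cyclin A gene that acts in S phase as well as in early mitosis, was at 17.6 FPKM in shRON and 19.7 FPKM in shNT (-0.15). It overlaps EXOSC9 by 578 bases on the other strand, where EXOSC9 was at 9.34 FPKM in shRON and 13 FPKM in shNT. CDK1 and the 3 cyclins together summed to 136.6 FPKM in shRON and 178.9 FPKM in shNT, a ratio of 0.764.

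The polo-like and Aurora kinases had ratios on both sides of 0, all under 1.5-fold. PLK1, which matures centrosomes and acts at kinetochores, was at 21.8 FPKM in shRON and 27.7 FPKM in shNT (-0.33). AURKA, the centrosomal Aurora kinase, was at 30.2 FPKM in shRON and 34.5 FPKM in shNT (-0.19). AURKB, the Aurora kinase of the chromosomal passenger complex, was at 11.9 FPKM in shRON and 10.6 FPKM in shNT (0.15), and its counting interval of 0.919 to 1.37 held 1. PLK4, which starts centriole duplication, was at 2.70 FPKM in shRON and 2.73 FPKM in shNT (-0.01), low in both.

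The 2 CDC25 phosphatases, which remove inhibitory phosphates from CDK1, had ratios of opposite sign, but after subtraction of the regional median, defined further on, CDC25C was at 0.04. CDC25B (chromosome 20, 3776401 to 3786762, plus strand; all positions of genes are on hg19, the build of the files) was the gene that rose. It stood at 31.2 FPKM in shRON and 19.99 FPKM in shNT (0.62), a ratio of 1.56 with a counting interval of 1.44 to 1.68. CDC25B was under 1.5-fold when ratios were centred on the median of all genes (0.58), with a pseudocount of 5 (0.53) and after the median of its neighbours in the genome was subtracted (0.51). Its 3 transcripts all had higher values in shRON, and the main one, of 3675 bases, was at 26.0 FPKM in shRON and 16.8 FPKM in shNT. CDC25C was at 4.23 FPKM in shRON and 5.39 FPKM in shNT (-0.29), with an interval of 0.617 to 0.997. CDC25B acts at the centrosome ahead of CDC25C in current models of mitotic entry.

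Of the 15 kinetochore and checkpoint genes, 10 had log2 ratios below 0 (66.7%), against 46% of all measured genes. By the rule, 2 of the 15 fell by 1.5-fold, SPC24 and NUF2 (13.3%), against 8.85%. The median of the 15 was -0.25, and their summed level was 156.4 FPKM in shRON and 175.1 FPKM in shNT. SPC24, NUF2, SPC25 and NDC80 encode the subunits of the NDC80 complex, the main microtubule coupler of the outer kinetochore. SPC24 (chromosome 19, 11257831 to 11266484, minus strand) was at 4.47 FPKM in shRON and 7.89 FPKM in shNT (-0.70), on only 41 estimated fragments in shRON and 74 in shNT, with a wide counting interval of 0.377 to 0.841 on the ratio of 0.567. NUF2 (chromosome 1, 163291723 to 163325553, plus strand) was at 6.33 FPKM in shRON and 10.05 FPKM in shNT (-0.59), a ratio of 0.630 (0.520 to 0.762). SPC25 had nearly the same difference, at 5.72 FPKM in shRON and 9.05 FPKM in shNT (-0.58). The subunit that gives the complex its name differed from its partners in direction, with NDC80 at 7.24 FPKM in shRON and 6.18 FPKM in shNT (0.20) and an interval of 0.966 to 1.42. The 4 together summed to 23.8 FPKM in shRON and 33.2 FPKM in shNT, a ratio of 0.716.

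Of the spindle checkpoint genes, 3 had ratios below 0 and 2 above it, all under 1.5-fold on the scale with 1 added. BUB1B, which encodes the checkpoint inhibitor BubR1, was at 6.93 FPKM in shRON and 10.4 FPKM in shNT (-0.52). TTK, the kinase Mps1 that starts checkpoint signalling, was at 5.98 FPKM in shRON and 8.15 FPKM in shNT (-0.39). MAD2L1, which encodes the MAD2 protein that binds CDC20, was at 13.3 FPKM in shRON and 17.3 FPKM in shNT (-0.36). In contrast, BUB3, the most abundant gene of the 15, was at 47.95 FPKM in shRON and 43.15 FPKM in shNT (0.15), or at -0.02 with its most abundant transcript alone. BUB1, a kinetochore kinase that recruits other checkpoint proteins, was at 7.97 FPKM in shRON and 6.45 FPKM in shNT (0.27). Since BUB3 makes up most of the sum, the 5 together were nearly equal, at 82.1 FPKM in shRON and 85.4 FPKM in shNT (ratio 0.961).

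The centromere proteins also differed among themselves. CENPF, a large outer-kinetochore protein of late cell cycle, was at 9.525 FPKM in shRON and 13.65 FPKM in shNT (-0.48). CENPA, the histone variant that marks centromeres, was at 8.81 FPKM in shRON and 6.72 FPKM in shNT (0.35), the highest log2 ratio of the 15, with a ratio of 1.31 (1.05 to 1.64). CENPE, a kinetochore kinesin, was at 2.72 FPKM in shRON and 1.97 FPKM in shNT (0.32). The chromosomal passenger genes beside AURKB lay a little below 0. The scaffold gene INCENP was at 10.6 FPKM in shRON and 11.55 FPKM in shNT (-0.12), CDCA8, which encodes borealin, was at 9.39 FPKM in shRON and 11.35 FPKM in shNT (-0.25), and BIRC5, which encodes survivin, was at 9.57 FPKM in shRON and 11.3 FPKM in shNT (-0.21). With AURKB, the 4 passenger genes summed to 41.4 FPKM in shRON and 44.8 FPKM in shNT, a ratio of 0.926. BIRC5 overlaps the listed gene EPR1 over 10463 bases, at 19.6 FPKM in shRON and 22.03 FPKM in shNT, and how reads were divided between them is uncertain.

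The 11 kinesins had a median log2 ratio of -0.01. It was 0.05 when FPKM was rescaled to the same total in each library and 0.00 when deposited coverage was used in place of FPKM. After the regional median was subtracted it was -0.16, and 10 of the 11 were below 0, against 49.96% of all measured genes. Before subtraction there were 6 ratios below 0 (54.55%), against 46% of all measured genes. KIF11 and KIF20B fell by 1.5-fold (18.2%), against 8.85%. The summed level of the 11 was 98.2 FPKM in shRON and 114 FPKM in shNT. KIF11 (chromosome 10, 94352825 to 94415152, plus strand), the motor Eg5 that pushes spindle poles apart, had 9.14 FPKM in shRON and 16.0 FPKM in shNT (-0.75), a ratio of 0.571 with a counting interval of 0.519 to 0.628. KIF20B (chromosome 10, 91461367 to 91534700, plus strand), a motor of late cytokinesis, had 4.54 FPKM in shRON and 7.85 FPKM in shNT (-0.68), a ratio of 0.578 (0.512 to 0.652). Both lie on chromosome 10 among genes that were lower in shRON too, as described below.

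KIF23, KIF22 and KIF14 were lower in shRON by less than 1.5-fold on the scale with 1 added. KIF23, the motor of centralspindlin, was at 6.41 FPKM in shRON and 9.885 FPKM in shNT (-0.55), a ratio of FPKM of 0.648. Its partner RACGAP1 was at 29.4 FPKM in shRON and 36.2 FPKM in shNT (-0.29). KIF22, a chromosome-arm motor and the most abundant of the 11, was at 19.0 FPKM in shRON and 25.8 FPKM in shNT (-0.42). KIF14, which acts with citron kinase in cytokinesis, was at 2.02 FPKM in shRON and 2.51 FPKM in shNT (-0.21).

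The other kinesins lay near or above equal levels. KIF18A, which damps chromosome movements, was at 6.21 FPKM in shRON and 6.24 FPKM in shNT (-0.01). KIF4A, a chromosome and midzone motor, was at 6.40 FPKM in shRON and 6.21 FPKM in shNT (0.04), and KIF2C, the microtubule depolymerase MCAK, was at 12.1 FPKM in shRON and 11.5 FPKM in shNT (0.07). KIFC1, a minus-end motor that bundles spindle poles, was at 17.1 FPKM in shRON and 15.7 FPKM in shNT (0.11). KIF15, which can support a bipolar spindle beside KIF11, was at 2.80 FPKM in shRON and 2.33 FPKM in shNT (0.19). The highest ratio belonged to KIF20A, which carries the passenger complex to the spindle midzone. It was at 12.6 FPKM in shRON and 9.96 FPKM in shNT (0.31), a ratio of 1.26 (1.12 to 1.42). KIF20A overlaps CDC23 by 68 bases on the other strand, where CDC23 was at 14.6 FPKM in shRON and 18.7 FPKM in shNT.

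Spindle assembly and cytokinesis genes had the lowest median of the role groups with several genes, at -0.50. Of the 8, 4 fell by 1.5-fold (50%), against 8.85% of all measured genes. The ranking covers the listed genes only, and 28 further spindle and cytokinesis genes, given later, had a median of -0.02. The summed level of the 8 was 178.8 FPKM in shRON and 247.2 FPKM in shNT. PRC1 (chromosome 15, 91509268 to 91537804, minus strand), which crosslinks antiparallel microtubules in the spindle midzone, had the lowest log2 ratio of all 56 genes. It was at 18.1 FPKM in shRON and 31.5 FPKM in shNT (-0.77), a ratio of 0.573 (0.525 to 0.626). PRC1 overlaps the listed gene LOC100507118 over 21615 bases, which was at 3.30 FPKM in shRON and 5.29 FPKM in shNT, so part of either value is uncertain. ECT2 (chromosome 3, 172472299 to 172539263, plus strand), the exchange factor that activates RhoA at the cleavage furrow, was the most abundant of the 8. It had 44.4 FPKM in shRON and 72.8 FPKM in shNT (-0.70), and its estimated fragments, 2548 in shRON and 4282 in shNT, gave a narrow interval of 0.580 to 0.641 on the ratio of 0.610.

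HMMR and NUSAP1, which encode microtubule-binding spindle proteins, fell too. HMMR (chromosome 5, 162887517 to 162918951, plus strand) was at 9.54 FPKM in shRON and 15.8 FPKM in shNT (-0.68), a ratio of 0.602 (0.534 to 0.679). NUSAP1 (chromosome 15, 41624926 to 41673248, plus strand) was at 28.1 FPKM in shRON and 43.9 FPKM in shNT (-0.63), a ratio of 0.640 (0.590 to 0.694). ANLN, the anillin gene of the contractile ring, was at 23.2 FPKM in shRON and 30.3 FPKM in shNT (-0.37). It overlaps KIAA0895 over 303 bases, which was at 5.65 FPKM in shRON and 5.06 FPKM in shNT. ASPM, a spindle pole gene, was at 4.76 FPKM in shRON and 5.39 FPKM in shNT (-0.15). TPX2, the activator of Aurora A, was at 38.5 FPKM in shRON and 36.2 FPKM in shNT (0.09), so it stood slightly above 0 where its kinase stood below. DLGAP5, a kinetochore-fibre gene, had the highest ratio of the 8, at 12.2 FPKM in shRON and 11.2 FPKM in shNT (0.11), with an interval of 0.961 to 1.23.

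Of the 4 genes of anaphase, 3 had ratios below 0 (75%), against 46% of all measured genes, and none reached 1.5-fold. PTTG1, which encodes securin, was the most abundant of the 56 genes in shNT. It had 67.6 FPKM in shRON and 91.0 FPKM in shNT (-0.42), a ratio of 0.743 (0.673 to 0.819). ESPL1, which encodes separase, the protease that securin holds inactive, was at 6.36 FPKM in shRON and 8.77 FPKM in shNT (-0.41). UBE2C, the ubiquitin-conjugating enzyme of the anaphase-promoting complex, was at 73.0 FPKM in shRON and 86.2 FPKM in shNT (-0.24). CDC20, the activator of that complex and the target of the checkpoint, had a ratio above 0. It was at 33.4 FPKM in shRON and 23.7 FPKM in shNT (0.48), a ratio of 1.41 (1.26 to 1.57), the highest after CDC25B.

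In the group of condensin and mitotic chromatin, 4 of 7 genes had ratios below 0 (57.1%), against 46% of all measured genes. Of the 7, 1 fell by 1.5-fold (14.3%), against 8.85%, and their median was -0.03. SMC4 (chromosome 3, 160117430 to 160152741, plus strand), an ATPase shared by both condensins, fell to 19.8 FPKM in shRON, against 33.4 FPKM in shNT (-0.72), a ratio of 0.594 (0.557 to 0.634). Its partner SMC2 was at 11.55 FPKM in shRON and 14.6 FPKM in shNT (-0.31). The condensin I subunits NCAPH, NCAPD2 and NCAPG stood at -0.03, 0.15 and 0.20. NCAPG, the highest of the 7, was at 7.18 FPKM in shRON and 6.12 FPKM in shNT, with a ratio of 1.17 (1.03 to 1.34), and it overlaps LCORL over 1650 bases. TOP2A, the mitotic topoisomerase and the most abundant of the 7, was at 34.2 FPKM in shRON and 41.7 FPKM in shNT (-0.28), a ratio of 0.820 (0.781 to 0.862). MKI67, the gene of the proliferation marker Ki-67, was at 7.11 FPKM in shRON and 6.96 FPKM in shNT (0.03). FOXM1, the transcription factor of late cell cycle genes, was at 18.2 FPKM in shRON and 16.5 FPKM in shNT (0.13), with an interval of 1.00 to 1.21.

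At the level of transcripts, 35 of the 56 genes had 1 listed transcript and 21 had several, and 19 had at least 2 transcripts at 1 FPKM. Transcripts of a gene share most of their bases, so their separate values are estimates of the authors' program. In 17 of the 19 genes the most abundant transcript was the same in both libraries. In PRC1 the transcript of 3071 bases was at 8.94 FPKM in shRON and 14.5 FPKM in shNT, and that of 2994 bases at 6.26 FPKM in shRON and 13.4 FPKM in shNT. The third PRC1 transcript, of 3113 bases, was closer, at 2.88 FPKM in shRON and 3.66 FPKM in shNT. Both transcripts of SMC4 were lower in shRON, that of 5124 bases at 12.8 FPKM against 23.8 FPKM in shNT and that of 5279 bases at 7.01 FPKM against 9.62 FPKM in shNT. In both genes more than 1 listed transcript was lower in shRON.

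The exceptions were NUSAP1 and SMC2, where the leading transcript differed between the libraries. In NUSAP1 the transcript of 2417 bases made up 42.9% of the gene's FPKM in shRON and 50.6% in shNT, while that of 2420 bases made up 48.4% in shRON and 41.6% in shNT. The summed level of both transcripts was lower in shRON. In SMC2 the transcript of 5986 bases was at 5.44 FPKM in shRON and 4.35 FPKM in shNT, whereas that of 6048 bases was at 0.810 FPKM in shRON and 3.29 FPKM in shNT. Its share of SMC2 was 7.01% in shRON and 22.6% in shNT. In TTK the transcript of 3010 bases was at 4.47 FPKM in shRON and 7.32 FPKM in shNT, while that of 3019 bases, a minor one, was at 1.502 FPKM in shRON and 0.835 FPKM in shNT. AURKA had 6 transcripts, of which that of 2114 bases was at 8.82 FPKM in shRON and 13.0 FPKM in shNT and that of 2547 bases at 5.14 FPKM in shRON and 4.07 FPKM in shNT.

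**Figure D3:**
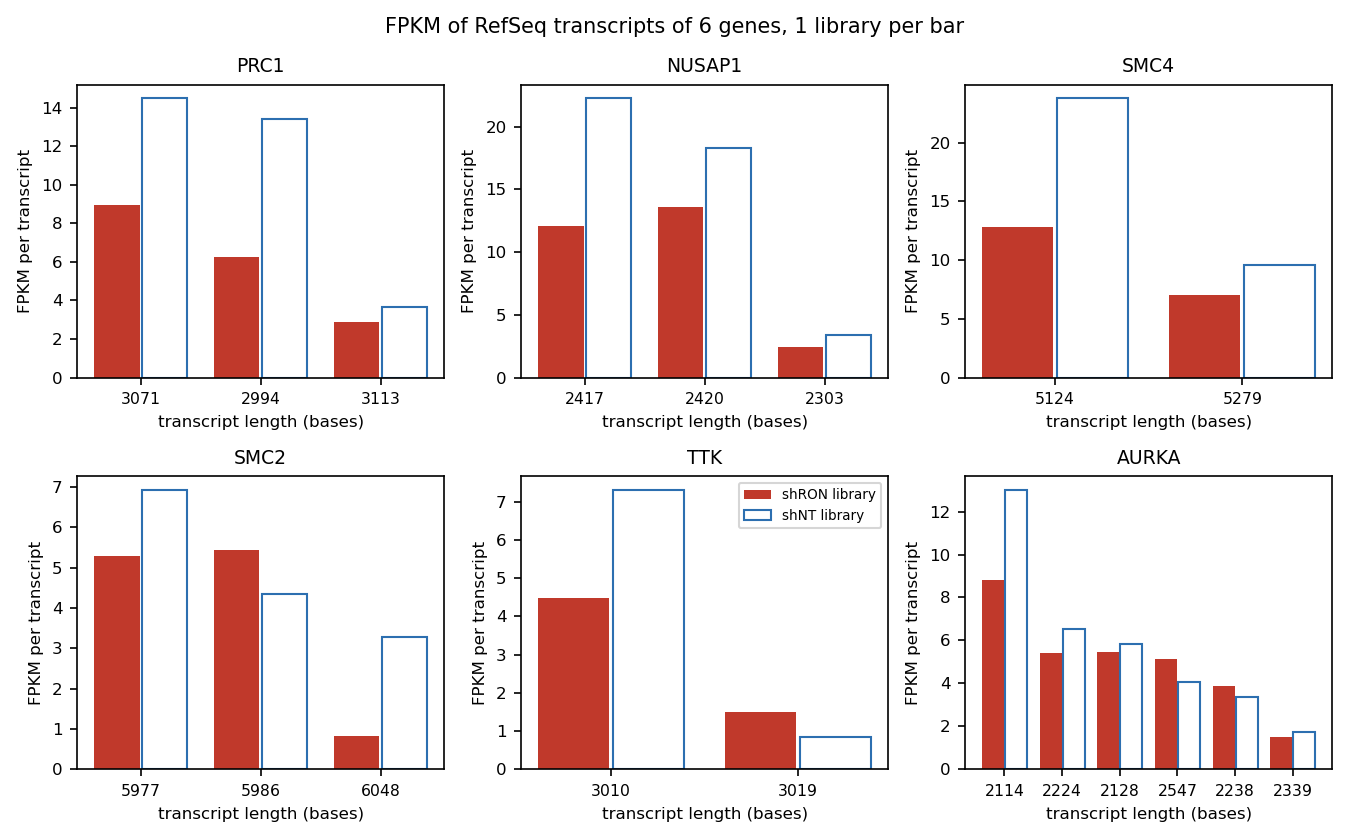
FPKM of each listed transcript of PRC1, NUSAP1, SMC4, SMC2, TTK and AURKA, named by length in bases on the x axis, with the shRON library as filled red bars and the shNT library as open blue bars. Every bar is 1 library, with no error bar. All transcripts of PRC1, NUSAP1 and SMC4 are lower in shRON, while SMC2, TTK and AURKA have transcripts on both sides.

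The log2 ratios of these genes moved with those of their neighbours in the genome. For each gene the regional median is the median log2 ratio of the 40 nearest measured genes of its chromosome, 20 on each side where available. Across the 56 genes the log2 ratio and the regional median had a Pearson correlation of 0.63, and across all 12493 measured genes 0.39. These are descriptions over genes, which share both libraries and, where neighbours, part of their regions. Of the 56 genes, 26 lay in regions with a median below 0, and all 9 genes that fell were among them. That was 34.6% of the 26, against 17.4% of all 4742 measured genes in such regions. Of all 1106 measured genes that fell, 824 lay in such regions. In these regions 25 of 26 genes had ratios below 0 (96.2%), with a median of -0.42, against 72.4% and -0.22 for all 4742 genes so placed. The 1 exception was KIF20A. In regions at 0 or above, 12 of 30 genes had ratios below 0 (40%), against 29.9% of all 7751 genes so placed. The median of the 30 was 0.08, against 0.16 for all genes so placed. None of the 30 fell, against 3.64% of all genes so placed.

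By chromosome, all 5 genes on chromosome 15 (PRC1, NUSAP1, KIF23, BUB1B and CCNB2) were lower in shRON, with log2 ratios of -0.77 to -0.27, where the median of the 401 measured genes of the chromosome was -0.28. On chromosome 5, 4 of 5 genes were, with a median of -0.41 against -0.25 for all measured genes there. Both genes on chromosome 16, PLK1 and KIF22, were lower by about as much as the chromosome's median of -0.33. Other chromosomes had medians near 0 over all their genes but lower ones for the listed genes. Among these were chromosome 10 (5 genes, -0.49 against 0.01), chromosome 3 (3 genes, -0.70 against -0.02), chromosome 1 (7 genes, -0.21 against 0.02) and chromosome 7 (1 gene, -0.37 against 0.05). The genes that fell on chromosomes 10, 3 and 1 lay in lower parts of them. Regional medians were -0.20 for KIF11, -0.22 for KIF20B, -0.45 for SMC4, -0.18 for ECT2 and -0.16 for NUF2. On chromosome 12 the listed genes lay higher (3 genes, 0.13 against 0.01), and on chromosome 18 the values were about equal (1 gene). CDC25B on chromosome 20 and CDC20 on chromosome 1 had regional medians of 0.11 and 0.19.

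Subtracting the regional median changed which genes reached 1.5-fold. The median of the 56 genes was then -0.14, and 44 of them were below 0, against 49.96% of all measured genes. At 1.5-fold, 3 of the 56 were lower than their region, a share no higher than the 6.36% of all measured genes. None of the 3 was among the 9 that fell before subtraction. They were CDK1, SPC25 and MAD2L1, each with neighbours above 0. CDK1 had a regional median of 0.14 and a difference from it of -0.63. SPC25 had a regional median of 0.22 and a difference of -0.80, and MAD2L1 had 0.24 and -0.60. The genes with the lowest ratios before subtraction stayed below their regions by less than 1.5-fold, with PRC1 at -0.56, SPC24 at -0.57, KIF11 at -0.55 and ECT2 at -0.52. SMC4 and NUSAP1, in regions of -0.45 and -0.38, were at -0.27 and -0.24. KIF20A was the 1 gene higher than its region by 1.5-fold, at 0.64, against 8.16% of all measured genes, and CDC25B was at 0.51. What sets the regional medians was not tested.

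**Figure D4:**
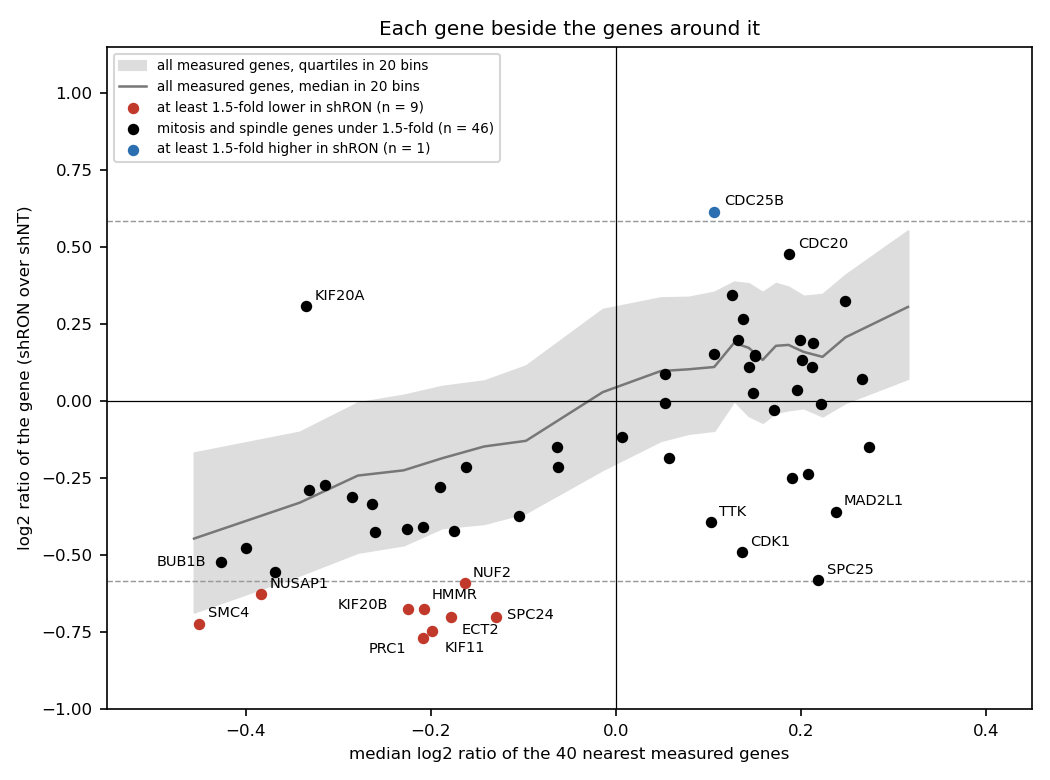
Log2 ratio of each of the 56 genes (y axis) against the median log2 ratio of the 40 nearest measured genes (x axis), with the quartiles and median of all measured genes in 20 bins of regional median in grey. Red points are the 9 genes at least 1.5-fold lower in shRON, the blue point is the 1 gene at least 1.5-fold higher, and black points are the others. All red points lie left of 0, and CDK1, SPC25, MAD2L1 and TTK lie below the grey band on the right.

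Other genes of the same processes, from lists of 109 further mitotic genes, 12 DREAM and MuvB subunits and 41 G1/S and replication genes, were set beside the 56. Of the other mitotic genes, 105 were measured, with a median log2 ratio of -0.13, or -0.09 after the regional median was subtracted. There were 72 below 0 before subtraction (68.6%), against 46% of all measured genes. At 1.5-fold, 8 fell (7.62%), against 8.85% of all measured genes, and 2 rose (1.90%), against 9.94%. The lowest was CENPK, a constitutive centromere protein, at 5.94 FPKM in shRON and 12.2 FPKM in shNT (-0.93). SKA2, a partner of the NDC80 complex at microtubule ends, followed at 16.4 FPKM in shRON and 30.6 FPKM in shNT (-0.86), and PKMYT1, a kinase that inhibits CDK1, at 10.5 FPKM in shRON and 18.7 FPKM in shNT (-0.77). At the other end stood FAM83D, a spindle protein that binds casein kinase, at 43.6 FPKM in shRON and 24.1 FPKM in shNT (0.83), the cohesin subunit RAD21 at 114.5 FPKM in shRON and 69.1 FPKM in shNT (0.72, regional median 0.45), and TUBB, a beta-tubulin with close relatives, at 157.3 FPKM in shRON and 105.1 FPKM in shNT (0.58).

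The subgroups of that list differed from one another. Of 31 measured further kinetochore and checkpoint genes, 28 had ratios below 0 (90.3%), against 46% of all measured genes. The median of the 31 was -0.31. The 14 genes listed for the anaphase-promoting complex, which include the enzyme UBE2S and the regulators FBXO5 and FZR1, had a median of -0.11. The 12 genes of cohesin and its regulators had a median of 0.03. The 28 further spindle and cytokinesis genes had a median of -0.02, with 15 below 0 (53.6%), against 46% of all measured genes. None of the 28 fell, against 8.85%, and 1 rose (3.57%), against 9.94%. The median was -0.13 for 17 further mitotic kinases and regulators and -0.06 for 3 further condensin genes. All 12 DREAM and MuvB genes were measured, with a median of -0.23, or 0.01 after the regional median was subtracted. Before subtraction 10 were below 0 (83.3%), against 46% of all measured genes. None reached 1.5-fold in either direction on the scale with 1 added. The MuvB subunit gene LIN9 was at 3.07 FPKM in shRON and 5.07 FPKM in shNT (-0.58). Without the added 1, its ratio of FPKM was 0.606, which is past 1.5-fold. TFDP1 had a log2 ratio of -0.54 and MYBL2, which encodes B-MYB, one of -0.44. The highest were LIN37 (0.33), RBBP4 (0.31) and TFDP2 (-0.03).

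The G1/S and replication genes were lower in shRON by more than the mitotic genes. Of 40 measured, 38 had ratios below 0 (95%), against 46% of all measured genes. At 1.5-fold, 13 fell (32.5%), against 8.85%, and none rose, against 9.94%. The median was -0.51, or -0.61 after the regional median was subtracted. DTL, a substrate receptor of a replication-coupled ubiquitin ligase, was at 3.87 FPKM in shRON and 10.85 FPKM in shNT (-1.28). GINS2, a subunit of the replicative helicase, was at 24.1 FPKM in shRON and 58.1 FPKM in shNT (-1.24), and CDC6, a licensing factor, at 5.53 FPKM in shRON and 13.7 FPKM in shNT (-1.17). The highest were UNG (0.07), MCM7 (0.03) and LIG1 (-0.02). The difference between the lists was not tested, since genes of 1 library pair are not replicates.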

How the data were processed

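RNA of T47D cells was measured in 2 libraries, 1 per group, and groups were taken from the treatment labels. The authors deposited, per the file headers, a Cufflinks-layout table per library with FPKM and coverage (a signal of read depth per base) for 37839 RefSeq transcripts. The build is hg19, and DESeq is named without a role, per the submitters' processing notes. The sources used here name neither the aligner nor a version of Cufflinks (not given). All 96 transcripts of the 56 genes had status OK.

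FPKM was summed per gene. Genes at 1 FPKM or more in either library were kept, and 14 genes whose transcripts were all under 200 bases were left out. Ratios were formed after adding a pseudocount of 1. Fragments per gene were estimated as coverage times length over the bases of a read pair (median 244.5 in shRON, 247 in shNT, from long genes with a single transcript and values between 150 and 325). Only 29.95% of low values in shRON and 28.75% in shNT lay within 0.1 of whole pairs, against 20% by chance, so no count test was run. Clopper-Pearson intervals on these estimates (95%) cover counting error only. The calculation was tested on simulated data. Python 3.11.15, numpy 2.4.6, pandas 2.3.3 and scipy 1.17.1 were used.

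Promoters are from RefSeq on GRCh38.p14 and gene positions from the files; strands are from GENCODE on GRCh37. A planned description of kinesin protein sequence was not made. Named genes were all kinases and cyclins, kinesins, kinetochore and checkpoint genes, all past 1.5-fold, the lowest, highest and most abundant of each role group, and the 3 lowest and 3 highest of each other list; some further genes were named to complete a complex. The genes, lists and rules were chosen with earlier results of these data known. Alternatives were other pseudocounts and filters, the most abundant transcript, other scalings, and subtraction of regional or level medians.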

Additional observations from a re-analysis of the deposited data

How the results depend on the processing

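Of the 10 alternative settings, none changed the sign of the median of the 56 genes (-0.27 to -0.14), of the kinases and cyclins (-0.27 to -0.13) or of the kinetochore and checkpoint genes (-0.30 to -0.10). Part of this was fixed in advance, since a pseudocount cannot change the sign of a ratio and leaving out the filter kept the same 56 genes. The kinesin median lay between -0.16 and 0.05. The genes with ratios below 0 numbered 34 to 44, where 32.3% to 50% of all genes kept were below 0. The filter of 5 FPKM kept 51 of the 56 genes, and 34 of the 51 were below 0. The count of 9 genes at least 1.5-fold lower in shRON was 3 with a pseudocount of 5. It was also 3 after the regional median was subtracted, against 6.36% of all measured genes. Otherwise it was 7 to 12, where 4.58% to 11.8% of all genes kept were lower. With a pseudocount of 5, the smaller count follows from its construction, which shrinks every ratio, and 3.73% of all measured genes were lower. The 1 gene at least 1.5-fold higher, CDC25B, was no longer counted with a pseudocount of 5 (0 genes, against 4.15% of all measured genes). Nor was CDC25B counted when ratios were centred on the median of all genes (0 genes, against 8.88%). It was also lost after the regional median was subtracted (0.51), where the count of 1 is KIF20A. Of 555 values of single genes under the alternatives, 506 stayed within their counting intervals and 49 moved beyond them. Part of the 506 was fixed in advance. The alternative filters cannot change the ratio of a single gene. The most abundant transcript cannot change it in the 35 genes with 1 listed transcript. The sign changed in 21, of 14 genes, none of them among the 10 genes at 1.5-fold. Other pseudocounts and filters could not change a sign. Of the 21, 11 came from subtracting the regional median, among them CCNB2 (0.04), CDC25C (0.04), KIF2C (-0.19) and FOXM1 (-0.07). No paired analysis was possible because each group holds 1 library and the labels give no replicate numbers, and no library could be left out. Depth limits the genes with few fragments, such as SPC24 with 41 in shRON and 74 in shNT.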
